A study of Homo sapiens with 9 samples.

Results

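The cells described here carried RPB1, the largest subunit of RNA polymerase II, with a C-terminal domain (CTD) of 70 repeats and 1 of 2 protein tags at its N terminus. HaloTag 70R cells, whose RPB1 was fused to the self-labelling HaloTag enzyme, were set against Dendra2 70R cells, whose RPB1 was fused to the photoconvertible fluorescent protein Dendra2. Barcodes were kept where 500 or more genes were detected and mitochondrial UMIs made up no more than 20%, which left 4677 HaloTag 70R cells and 2718 Dendra2 70R cells, 7395 of the 20451 such cells in the series. The rows of the tags themselves were dropped, and the comparison ran over genes.

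Both lines are derivatives of U2OS, a human osteosarcoma line that the labels call epithelial. Before collection all cells of both lines spent 6 days in α-amanitin at 1 µg/ml, a toxin that blocks the cells' own RNA polymerase II, a treatment used so that transcription rests on an introduced RPB1 that resists the toxin. Each line was profiled as 1 library of single-cell 3′ RNA-seq, and separate cultures or clones of a line are not described in the labels. The HaloTag 70R library was sequenced in 2 runs that were merged, and the Dendra2 70R library in 1 run of a later campaign. The tag, the line, the library and the sequencing campaign therefore cannot be told apart, and with 1 library a side no difference has a replicate check. Sizes are given without tests, and intervals cover counting error only.

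The CTD of RPB1 is a long tail of heptad repeats whose phosphorylation recruits capping, splicing and 3′-end processing factors as the polymerase starts, elongates and terminates. Replication-dependent histone messages depend on a dedicated route: they end in a conserved stem-loop in place of a poly(A) tail. Transcription of most genes is intermittent, and the frequency and size of bursts can be estimated from how a gene's counts are spread over single cells.

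The 2 libraries had near-equal totals, 54309368 UMIs in HaloTag 70R and 53635648 in Dendra2 70R, spread over unequal numbers of cells. A HaloTag 70R cell had a median of 10812 UMIs and 3363 genes, against 18739 UMIs and 4588 genes in a Dendra2 70R cell, the lowest and the highest medians of the 6 libraries in the series. Mitochondrial transcripts made up a median of 9.08% of a HaloTag 70R cell's UMIs and 5.41% of a Dendra2 70R cell's. The filter had removed 2.36% of barcodes in HaloTag 70R and 2.12% in Dendra2 70R, and 4 barcodes occurred in both libraries. Summed counts cannot tell fewer cells with a transcript apart from less of it per cell.

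The counts of each library held a row for its own tag only, so the other tag could not be looked for. HaloTag sequence gave 547 UMIs in the HaloTag 70R library, in 10.0% of its cells, and Dendra2 sequence gave 578 UMIs in the Dendra2 70R library, in 15.8% of its cells. The messenger RNA of RPB1, POLR2A, stood at 205 counts per 1000000 UMIs (CPM) in HaloTag 70R (95% Poisson interval 201 to 208) and at 188 CPM in Dendra2 70R (185 to 192), a log2 difference of 0.12. Of the label's epithelial markers, 3 of 16 reached 10 CPM, and these 3 were keratins. KRT18 had 858 CPM in HaloTag 70R and 803 CPM in Dendra2 70R. Of the markers that define epithelia, EPCAM had 12 UMIs in all of HaloTag 70R and 333 in all of Dendra2 70R, CDH1 had 17 and 14 in the same order, and GRHL2 had 0 in both. Mesenchymal markers summed to 3332 CPM in HaloTag 70R and 3211 CPM in Dendra2 70R, against 1064 CPM and 1023 CPM for the epithelial list. Most of the mesenchymal sum was VIM, the filament vimentin, at 2554 CPM in HaloTag 70R and 2707 CPM in Dendra2 70R. Of 12 mesenchymal markers of at least 10 CPM, 8 were higher in HaloTag 70R (48.3% of all such genes were) and 4 lower. Their median log2 difference was 0.58, with 2 past 2-fold higher and 1 lower (2.35% and 1.53% of all such genes). No leukocyte marker (of 12) and no endothelial marker (of 10) reached 10 CPM. Their summed levels were 5.67 CPM in HaloTag 70R and 5.89 CPM in Dendra2 70R for the leukocyte list, and 3.28 CPM and 2.65 CPM in the same order for the endothelial list. LYZ, NKG7, PECAM1 and CDH5 were at 0 in both libraries.

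Across the 8220 genes that averaged at least 10 CPM in the pair, 319 differed 2-fold or more (3.88%). Of these, 193 were higher in HaloTag 70R (2.35%) and 126 were lower (1.53%). The log2 difference of all 8220 genes had a median of -0.01 and an SD of 0.47. The balance of directions moved with the scaling: edgeR's TMM factors gave 157 higher and 164 lower genes. For scale, 346 of the same genes were past 2-fold between HaloTag and Dendra2 lines with a 25-repeat CTD (4.21%, of which 2.42% higher and 1.79% lower), and 155 between those with 52 repeats, the normal length (1.89%, of which 1.46% higher and 0.426% lower). Whether the 3 pairs differ was not tested.

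**Figure D1:**
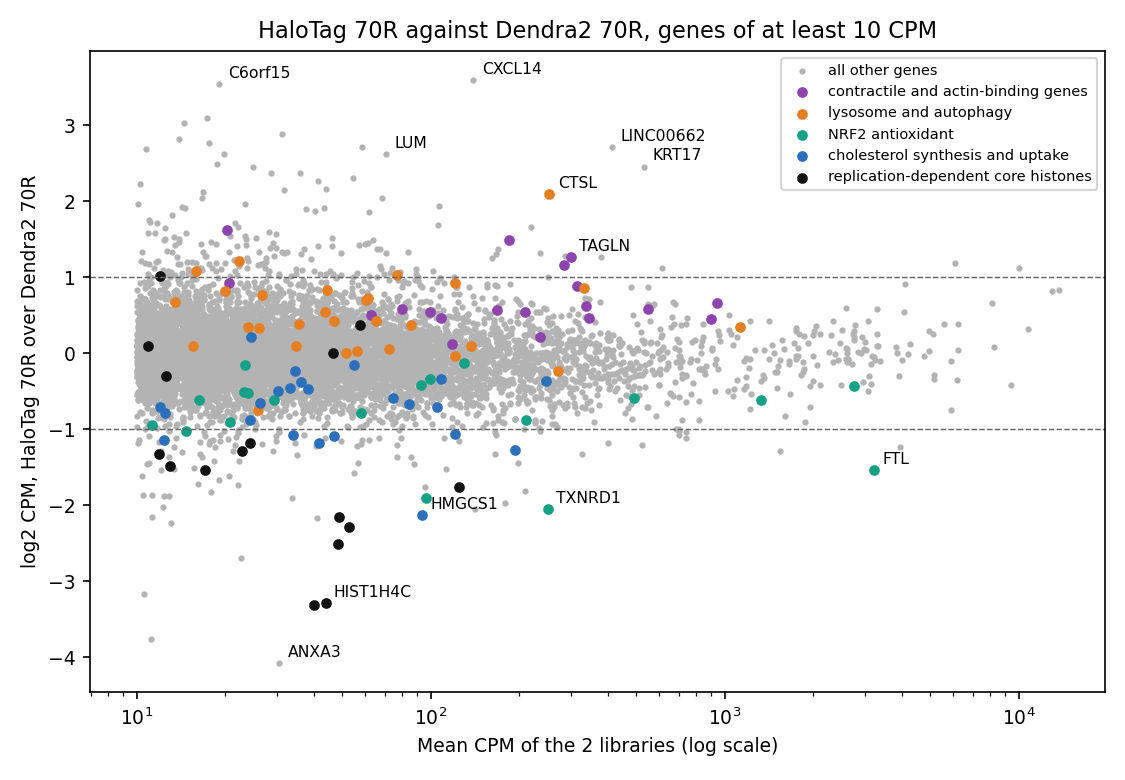
Each point is 1 gene of at least 10 CPM: the x axis gives the mean CPM of the 2 libraries on a log scale and the y axis the log2 CPM difference, HaloTag 70R over Dendra2 70R, with dashed lines at 2-fold. Colours mark 5 gene lists. Core histones reach -3.31, cholesterol genes -2.13 (HMGCS1) and NRF2 antioxidant genes -2.05 (TXNRD1), while all 19 contractile genes lie above 0.

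The genes furthest above 0 included those of secreted and structural proteins. CXCL14, a secreted chemokine, had 259 CPM in HaloTag 70R (255 to 264) and 20.5 CPM in Dendra2 70R (19.3 to 21.8), a log2 difference of 3.60. Its level split neither the tags nor the CTD lengths cleanly: the HaloTag 25R and 52R libraries had 7.79 and 282 CPM, and the Dendra2 25R and 52R libraries 40.3 and 318 CPM. KRT17, a basal keratin, had 900 CPM in HaloTag 70R and 163 CPM in Dendra2 70R (log2 2.46), and the long noncoding RNA LINC00662 had 720 CPM and 108 CPM in the same order (log2 2.72). SMOC1, a matricellular calcium-binding protein (log2 3.10), SELENOP, the selenium carrier selenoprotein P (2.82), and LUM, the matrix proteoglycan lumican (2.62), were also among the 15 highest. C6orf15 (3.54), KRT75 (3.03), LRRN1 (2.89), MIAT (2.77), IGFL2-AS1 (2.72), GUCY1A2 (2.69), AC006504.1 (2.62), TXNIP (2.49) and SYCE1L (2.46) completed them.

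The sign of C6orf15, SMOC1 and MIAT was above 0 at all 3 CTD lengths. C6orf15 had log2 differences of 3.54 at 70R, 2.22 at 25R and 3.01 at 52R. KRT17 and LINC00662 differed in sign at 25R, with log2 differences of -1.42 and -0.86.

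The 15 genes furthest below 0 held 5 core histone genes, described below, and genes of other kinds. ANXA3, a calcium-dependent phospholipid-binding annexin, had 2.52 CPM in HaloTag 70R (2.12 to 2.98) and 58.6 CPM in Dendra2 70R (56.6 to 60.7), a log2 difference of -4.08. HaloTag 70R was the low library of the 6, with between 42.4 and 69.8 CPM in the other 4 lines. The gene lies at chr4:78551747-78610451 (GRCh38). MT1G, a metal-binding metallothionein (-3.17), PLCG2, a phospholipase of receptor signalling (-2.05), TRIM16L (-2.70), PARP16 (-2.23), SPANXC (-2.17) and TMEM132D-AS1 (-2.16) belonged to the same 15, together with HMGCS1 and TXNRD1. SPANXC has near-identical copies on chromosome X, so its reads may be shared with them.

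Of the 193 genes higher at 70R, 117 had the same sign in both other pairs and 20 were past 2-fold in both. Of the 126 lower genes, 70 had the same sign in both and 15 were past 2-fold in both. Pair by pair, 124 of the 193 were above 0 at 25R and 174 at 52R. Of the 126, 81 were below 0 at 25R and 97 at 52R. Of all 8220 genes, 3958 were below 0 at 25R and 3339 at 52R. The share of all genes with 1 sign, or past 2-fold, in both other pairs at once was not computed. The 193 had median log2 differences of 1.28 at 70R, 0.34 at 25R and 0.69 at 52R, and the 126 had -1.26, -0.32 and -0.34 in that order. A single gene was past 2-fold at 70R and past 2-fold the other way in both other pairs. This was TGM2, the protein cross-linking transglutaminase 2, with 5.30 CPM in HaloTag 70R and 16.4 CPM in Dendra2 70R (log2 -1.46), against log2 differences of 3.50 at 25R and 1.86 at 52R.

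Among the lists with at least 5 members of 10 CPM or more, the replication-dependent core histones had the median furthest from 0. These genes package newly copied DNA and are transcribed in S phase, and a 3′ library primed on poly(A) reads them through the small part that carries a tail. Of 60 core histone genes, 16 averaged at least 10 CPM, and 11 of these were past 2-fold lower in HaloTag 70R (against 1.53% of all genes) and 1 was past 2-fold higher. Their median log2 difference was -1.40 at 70R, -2.17 at 25R and -1.69 at 52R. Summed over the list, core histones had 340 CPM in HaloTag 70R and 959 CPM in Dendra2 70R. Of 3 linker histones of at least 10 CPM, HIST1H1E (-1.76) and HIST1H1A (-1.37) were past 2-fold lower and HIST1H1C was not (-0.06). The 11 replacement histones, whose messages are mostly polyadenylated, had a median of -0.15 with none past 2-fold. They ran from -0.82 (H2AFZ) to 0.76, with H2AFX at -0.56.

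Every one of the 19 histone genes of at least 10 CPM has an annotated transcript with the 3′ stem-loop, searched on the transcript strand as the arms GGNNNT and ANNNCC around the loop TTNN, with all 6 pairs of the stem matched (G with T allowed). The same search found it in 146 of 19702 protein-coding genes of GENCODE v44 (0.741%). The elements of 5 genes past 2-fold lower in HaloTag 70R and of 2 that were not are given here from GENCODE v44 transcripts, 5′ to 3′ in DNA letters, with the stem-loop in capitals, because both kinds of gene carry it.
HIST1H3D: ccaaaGGCTCTTTTCAGAGCCaacca
HIST1H4C: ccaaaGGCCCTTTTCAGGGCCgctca
HIST1H2AG: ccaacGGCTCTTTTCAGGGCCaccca
HIST2H2AB: ccaaaGGCTCTTTTAAGAGCCacca
HIST1H1A: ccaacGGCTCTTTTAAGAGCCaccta
HIST1H2AC: ccaaaGGCTCTTTTCAGAGCCccccta
HIST2H2BE: ccaaaGGCTCTTTTCAGAGCCacccacc
HIST1H3D lies at chr6:26196784-26197286 on the minus strand, HIST1H4C at chr6:26103933-26104337 on the plus strand, and HIST2H2BE at chr1:149884459-149886682 on the minus strand (GRCh38).

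The genes differed in their annotated 3′ ends. Of the 13 histone genes past 2-fold lower in HaloTag 70R, 12 have annotated coding transcripts that all stop within 8 bases after the stem-loop, and 1, HIST1H2BC, also has a transcript without it. Of the 6 that were not past 2-fold lower, 5 have a transcript that lacks the stem-loop or, in HIST2H2BE, runs 1729 bases past it. This split was noticed after the values were seen and is a description. HIST1H4C, of the first kind, had 7.37 CPM in HaloTag 70R (6.66 to 8.12) and 80.6 CPM in Dendra2 70R (78.2 to 83.0). Its counts came from few cells, 1.54% of those in HaloTag 70R and 7.87% of those in Dendra2 70R. Its level also varied between libraries, with 17.6 CPM in HaloTag 25R and 1016 CPM in Dendra2 52R. HIST1H3D had 6.57 CPM in HaloTag 70R and 74.0 CPM in Dendra2 70R. HIST1H2AC, of the second kind, had 46.4 CPM in HaloTag 70R and 46.5 CPM in Dendra2 70R, and HIST2H2BE had 16.4 CPM and 7.57 CPM in the same order.

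**Figure D2:**
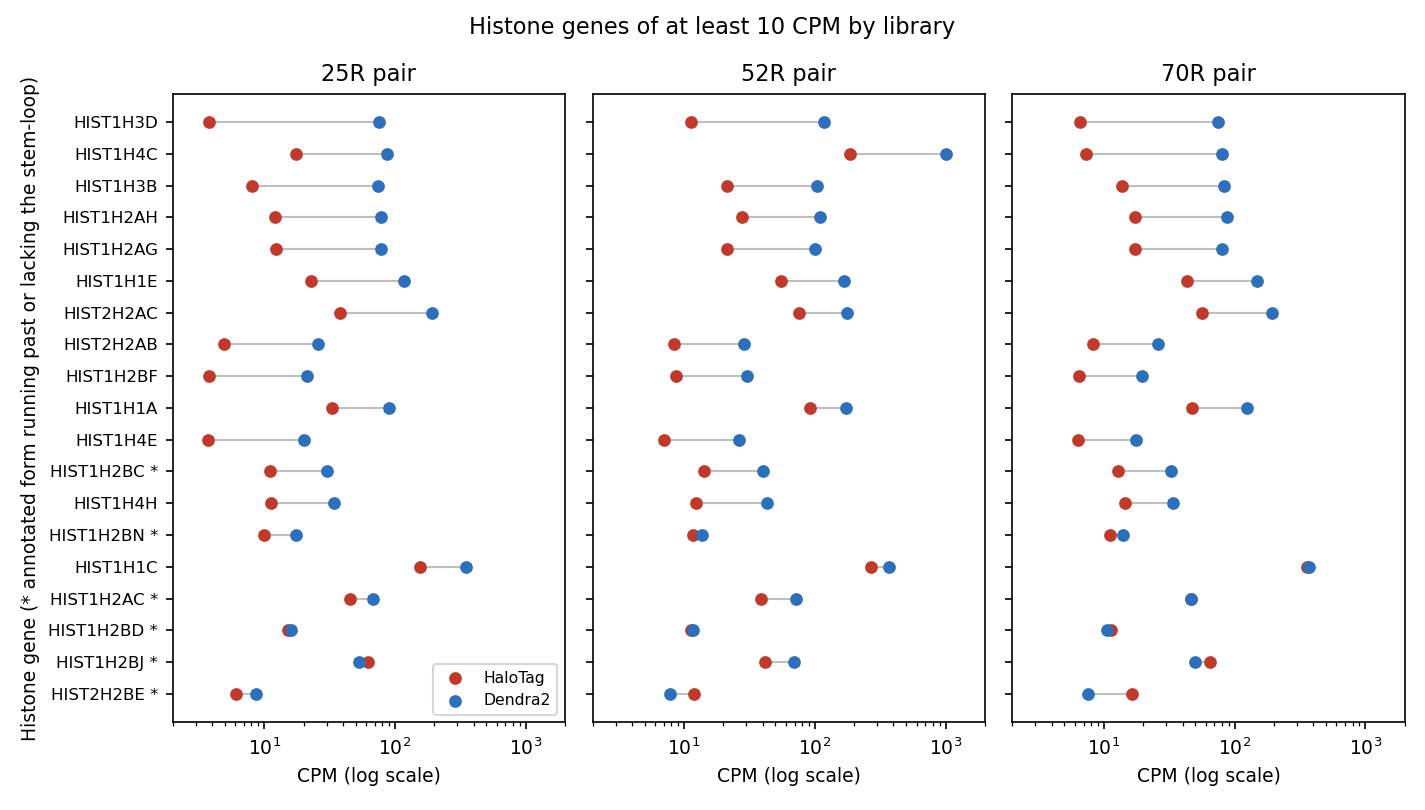
Each row is 1 core or linker histone gene of at least 10 CPM and each panel 1 pair of lines; red points give CPM in the HaloTag library and blue points CPM in the Dendra2 library, on a log axis. Asterisks mark genes with an annotated transcript that lacks the stem-loop or runs more than 100 bases past it. In the 70R panel the unstarred rows except HIST1H1C have the red point far left of the blue one, and 5 of the 6 starred rows have the points close together or crossed.

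Cell-cycle calls differed between the libraries as well. After each cell was thinned to 5000 UMIs, 23.2% of HaloTag 70R cells were called S, 40.4% G2/M and 36.4% G1, against 30.4% S, 51.6% G2/M and 17.96% G1 in Dendra2 70R. A score lay within 0.05 of the dividing line in 23.9% of HaloTag 70R cells and 35.2% of Dendra2 70R cells, so the calls are ranges of a score, and free RNA was not tested as a contributor. Thinning left out 217 HaloTag 70R cells and 56 Dendra2 70R cells. Within cells called S, the median log2 difference of the core histones was -1.66, within G2/M -1.35 and within G1 -0.16.

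Sterol synthesis genes were lower in HaloTag 70R. Cells make cholesterol through a chain of enzymes that SREBP2 induces together when sterols are scarce. Of 23 members of at least 10 CPM, 22 had a log2 difference below 0 (51.7% of all genes did) and 7 were past 2-fold lower (1.53% of all genes were), with a median of -0.67 at 70R, -0.13 at 25R and 0.12 at 52R. HMGCS1, which makes HMG-CoA at the head of the chain, had 34.2 CPM in HaloTag 70R (32.7 to 35.8) and 153 CPM in Dendra2 70R (150 to 157), a log2 difference of -2.13. The HaloTag 25R and 52R libraries had 66.7 and 61.5 CPM of it, and the Dendra2 25R and 52R libraries 62.1 and 52.3 CPM. HaloTag 70R was thus the lowest of the 6 libraries and Dendra2 70R the highest.

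SQLE, the squalene epoxidase, had the same order, with 113 CPM in HaloTag 70R and 273 CPM in Dendra2 70R (-1.27) and between 158 and 195 CPM in the other 4 lines. DHCR7 (-1.18), MVK (-1.14), MSMO1 (-1.09), IDI1 (-1.08) and CYP51A1 (-1.06), enzymes of the same chain, were the other members past 2-fold. Of 12 fatty acid synthesis genes, 11 were below 0 (51.7% of all genes were), with a median of -0.50. FASN, the fatty acid synthase (42.4 CPM in HaloTag 70R, 111 CPM in Dendra2 70R, -1.37), and SCD, the stearoyl-CoA desaturase (36.0 CPM and 80.7 CPM, -1.14), were past 2-fold.

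Promoters of sterol genes are known to pair SREBP sites with NF-Y sites, whose core is CCAAT. The RefSeq table on GRCh38.p14, with 250 bases before and 50 after each start, held 17 of the 23 cholesterol genes, and CCAAT stood on either strand in 15 of these (88.2%). It stood in 2908 of the 6601 genes of at least 10 CPM in that table (44.1%) and in 39.7% of all 27305 symbols. Among the contractile genes described further on it stood in 11 of 16 (68.8%). Genes with several starts count if any of their windows holds the letters. The windows of HMGCS1 (chr5:43313363-43313662, minus strand) and MSMO1 (chr4:165327419-165327718, plus strand) are shown because both genes were past 2-fold lower, with CCAAT or its complement ATTGG in capitals. A second HMGCS1 window in the table, at chr5:43313132-43313431, holds neither and is not shown.
HMGCS1: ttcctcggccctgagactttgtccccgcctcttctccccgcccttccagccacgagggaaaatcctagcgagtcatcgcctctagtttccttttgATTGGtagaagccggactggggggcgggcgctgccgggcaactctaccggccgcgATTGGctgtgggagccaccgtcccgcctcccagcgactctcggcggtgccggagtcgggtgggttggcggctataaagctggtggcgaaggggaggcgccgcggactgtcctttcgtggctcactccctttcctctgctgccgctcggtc
MSMO1: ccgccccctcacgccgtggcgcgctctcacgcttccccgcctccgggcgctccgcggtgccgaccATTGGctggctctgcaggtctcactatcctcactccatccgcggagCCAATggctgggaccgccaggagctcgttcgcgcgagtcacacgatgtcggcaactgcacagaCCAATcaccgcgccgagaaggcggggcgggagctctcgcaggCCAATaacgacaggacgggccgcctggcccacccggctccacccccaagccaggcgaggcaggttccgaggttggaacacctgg
A match is a description of the letters and no evidence of binding.

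Antioxidant genes of the NRF2 list formed the other broad block below 0. NRF2 is the transcription factor that induces glutathione, thioredoxin and NADPH-producing enzymes under oxidative stress. All 19 members of at least 10 CPM were below 0 (51.7% of all genes were) and 4 were past 2-fold lower (1.53% of all genes were), with a median of -0.61 at 70R, 0.15 at 25R and -0.16 at 52R. TXNRD1, the thioredoxin reductase, had 96.5 CPM in HaloTag 70R (93.9 to 99.2) and 404 CPM in Dendra2 70R (398 to 409), a log2 difference of -2.05. The HaloTag 25R and 52R libraries had 163 and 130 CPM, and the Dendra2 25R and 52R libraries 238 and 189 CPM. NQO1, a quinone reductase, had 40.4 CPM in HaloTag 70R and 153 CPM in Dendra2 70R (-1.90).

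FTL, the ferritin light chain that stores iron, had 1656 CPM in HaloTag 70R and 4818 CPM in Dendra2 70R (-1.54), and SLC7A11, the cystine importer, 9.39 CPM and 20.1 CPM in the same order (-1.02). FTL has processed copies, which 3′ reads may not separate. The list's other members ran from -0.94 to -0.13. The antioxidant response core TGACNNNGC was in the promoter windows of 4 of 13 matched members (30.8%), 19.7% of genes of at least 10 CPM and 16.1% of all symbols. It was in 9 of 20 lysosome and autophagy genes (45.0%) and 4 of 16 contractile genes (25.0%), lists described further on. The cholesterol list had it in 2 of 17 (11.8%) and the fatty acid list in 1 of 11 (9.09%). NQO1 was not among the 4 NRF2 members with the core. GCLM, the regulatory subunit of glutathione synthesis, was, with 42.1 CPM in HaloTag 70R and 73.5 CPM in Dendra2 70R (-0.79). Its window at chr1:93909381-93909680 (minus strand) holds the reverse complement, in capitals.
GCLM: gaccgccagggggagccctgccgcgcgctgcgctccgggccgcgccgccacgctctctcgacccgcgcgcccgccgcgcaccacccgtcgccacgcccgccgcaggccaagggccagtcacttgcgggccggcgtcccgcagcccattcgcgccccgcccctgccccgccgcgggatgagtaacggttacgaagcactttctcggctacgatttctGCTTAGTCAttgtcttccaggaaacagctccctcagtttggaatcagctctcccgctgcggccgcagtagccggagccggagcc

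Contractile genes were higher in HaloTag 70R. These encode the myosin, tropomyosin, troponin and actin-bundling proteins of stress fibres and muscle-like cells. All 19 members of at least 10 CPM were above 0, as were 48.3% of all genes, and 4 were past 2-fold higher (against 2.35%), with a median of 0.58 at 70R, -0.19 at 25R and -0.01 at 52R. TAGLN, the actin-binding transgelin, had 424 CPM in HaloTag 70R (419 to 429) and 176 CPM in Dendra2 70R (172 to 179), a log2 difference of 1.27. At 25R it had 26.6 CPM in HaloTag and 60.1 CPM in Dendra2 cells, and at 52R 192 and 249 CPM, so the sign at 70R was the opposite of that in both other pairs. TNNC1, a troponin subunit, had 273 CPM in HaloTag 70R and 96.7 CPM in Dendra2 70R (1.49).

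MYL9, a regulatory myosin light chain, had 393 CPM in HaloTag 70R and 175 CPM in Dendra2 70R (1.16), and MYLK, the kinase that phosphorylates it, 31.1 CPM and 9.40 CPM in the same order (1.63). FLNA, the actin cross-linker filamin A, and VCL, the adhesion protein vinculin, lay nearest 0, at 0.21 and 0.12. The immediate early list, which holds SRF-linked genes, had a median of 0.21 over 20 members. FOS (64.2 CPM in HaloTag 70R, 16.7 CPM in Dendra2 70R, 1.88) and EGR1 (69.3 CPM and 17.8 CPM, 1.91) were the members past 2-fold. Of all genes, 2.35% were past 2-fold higher. SRF itself was at 0.22.

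The medians of the matrix, lysosomal and FOXO-linked lists also lay above 0. Of 25 collagen and matrix genes, 6 were past 2-fold higher and 1 lower, against 2.35% and 1.53% of all genes, with a median of 0.45. LUM had 122 CPM in HaloTag 70R and 19.02 CPM in Dendra2 70R, FN1, the adhesive glycoprotein fibronectin, 60.9 and 22.1 CPM (1.42), and COL1A1, a chain of type I collagen, 102 and 45.9 CPM (1.13). COL5A2, a type V collagen chain, ran the other way, with 6.61 CPM in HaloTag 70R and 17.6 CPM in Dendra2 70R (-1.29). TIMP1, a metalloproteinase inhibitor, had 843 CPM in HaloTag 70R and 387 CPM in Dendra2 70R (1.12), with log2 differences of 1.19 at 25R and 0.79 at 52R. COL1A1 did not keep its sign, with 0.35 at 25R and -0.55 at 52R.

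Of 29 lysosome and autophagy genes, 26 were above 0 and 4 were past 2-fold higher, against 48.3% and 2.35% of all genes, and the median of 0.42 at 70R stood below the 0.87 at 25R and the 0.58 at 52R. CTSL, the protease cathepsin L, had 412 CPM in HaloTag 70R (407 to 417) and 95.7 CPM in Dendra2 70R (93.1 to 98.3), a log2 difference of 2.10. TPP1 (1.21) and CTSB (1.03), both lysosomal hydrolases, were also past 2-fold. Of the FOXO-linked list, 7 of 18 genes averaged at least 10 CPM, all above 0 and 5 past 2-fold higher, against 48.3% and 2.35% of all genes, with medians of 1.19 at 70R, 0.86 at 25R and 1.04 at 52R. TXNIP, an inhibitor of thioredoxin and of glucose uptake, had 32.5 CPM in HaloTag 70R and 4.96 CPM in Dendra2 70R. FBXO32 (1.92), a ubiquitin ligase subunit, KLHL24 (1.76), SESN3 (1.19), a sestrin, and CITED2 (1.08), a transcriptional co-regulator, were the others past 2-fold. In Dendra2 70R, TXNIP, FBXO32 (5.54 CPM) and KLHL24 (4.49 CPM) were below 10 CPM. They reached the mean of 10 CPM through HaloTag 70R, so the counts by direction in this list partly follow from that floor.

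**Figure D3:**
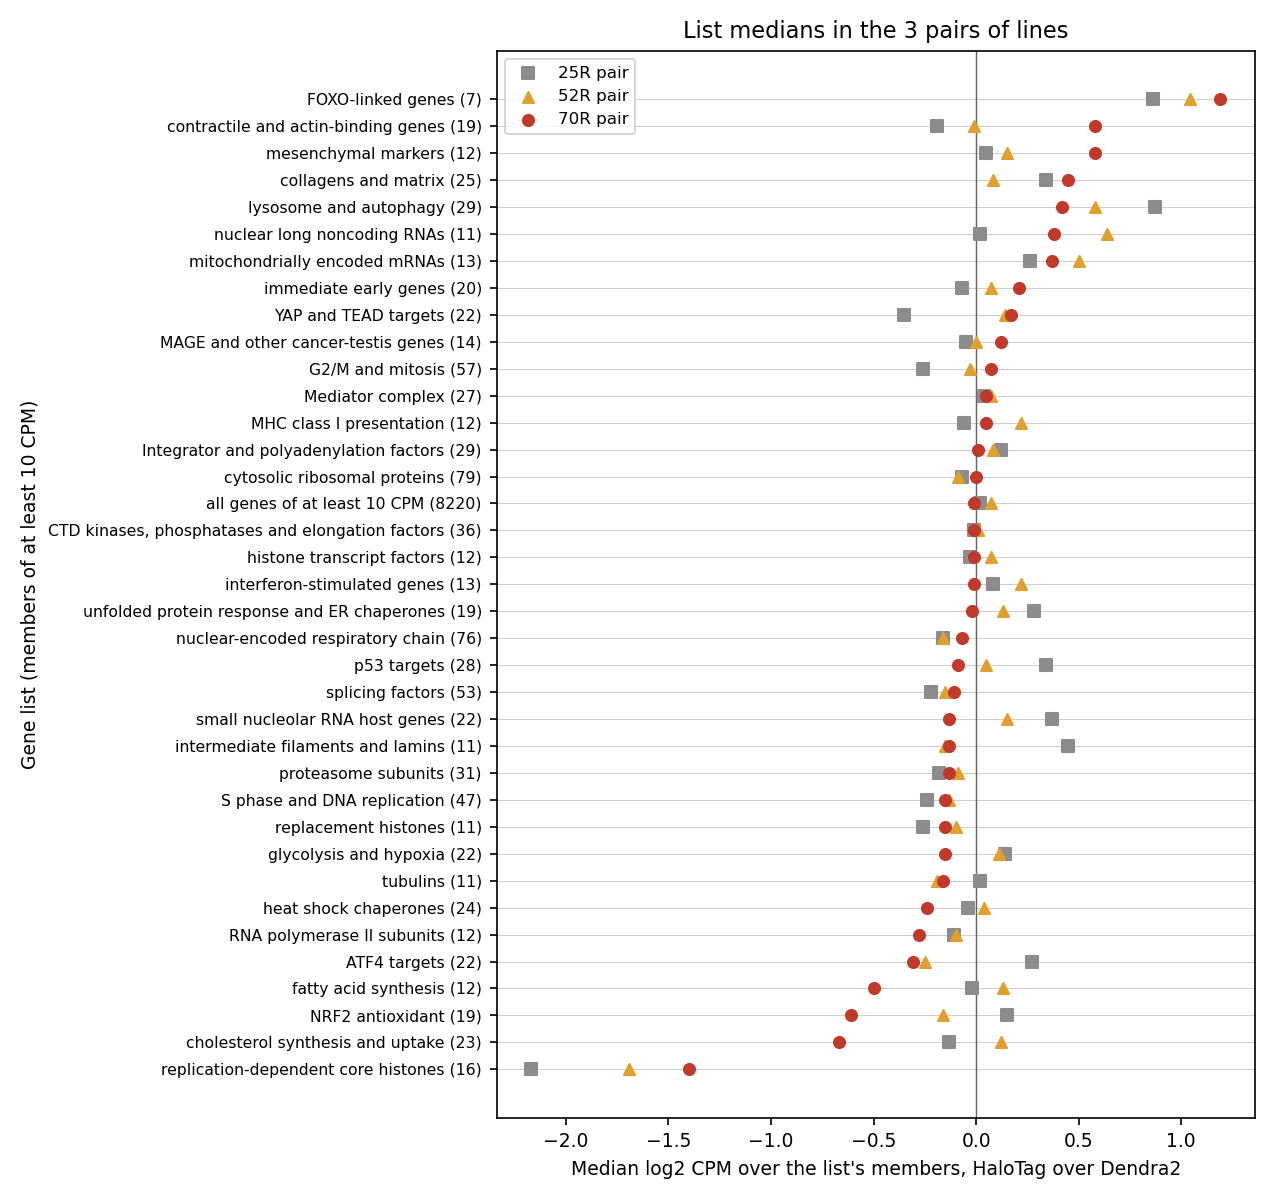
Each row is 1 gene list with the number of its members of at least 10 CPM; symbols give the median log2 CPM difference, HaloTag over Dendra2, in the pairs at 25R, 52R and 70R. At 70R the core histones (-1.40), cholesterol (-0.67), NRF2 (-0.61) and fatty acid (-0.50) lists lie lowest, and the FOXO-linked (1.19), contractile (0.58) and mesenchymal (0.58) lists highest.

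Several housekeeping lists stayed near the median of all genes. The median was -0.00 over 79 genes of cytosolic ribosomal proteins, -0.11 over 53 splicing factors, 0.05 over 27 Mediator genes and -0.01 over 36 CTD kinases, phosphatases and elongation factors, with no member past 2-fold in any of the 4 lists. Of 12 RNA polymerase II subunits, 8 were below 0 (51.7% of all genes were), with a median of -0.28. POLR2D (-0.60) and POLR2E (-0.59) lay lowest and POLR2B, the second largest subunit, highest (0.25). Mitochondrially encoded messages did not stay near it. Of 13 such genes, 11 were above 0 (48.3% of all genes were), with a median of 0.37. They summed to 89980 CPM in HaloTag 70R and 54060 CPM in Dendra2 70R. MT-CYB (1.19) and MT-ATP6 (1.12) were past 2-fold higher (2.35% of all genes were) while MT-ND2 stood at -0.07. Of 24 heat shock chaperones, HSPE1 (-1.11) and HSPD1 (-1.02) were past 2-fold lower (1.53% of all genes were). They are the paired mitochondrial chaperonins that share a divergent promoter on chromosome 2.

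The share of cells with at least 1 UMI of a gene gave a second reading. On all UMIs, 4853 of 8220 genes differed by 10 percentage points or more and 4784 of these were lower in HaloTag 70R, the shallower library per cell. With each cell thinned to 5000 UMIs, 604 genes did (7.35%), 235 higher in HaloTag 70R (2.86%) and 369 lower (4.49%). With 1 cell type a line there is no population that should lack a gene, so no background share could be measured. KRT17 was detected in 89.4% of HaloTag 70R cells (95% Clopper-Pearson interval 88.5 to 90.3%) and 39.6% of Dendra2 70R cells (37.7 to 41.5%). On all UMIs the shares were 95.2% and 65.8% in the same order. LINC00662 (75.4% in HaloTag 70R, 35.5% in Dendra2 70R), SERTAD4-AS1 (75.3% and 38.05%), TNNC1 (68.8% and 33.9%) and MAP3K7CL (49.7% and 16.45%) were the next largest rises.

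PLCG2 had the largest fall, detected in 23.7% of HaloTag 70R cells (22.4 to 25.0%) and 67.0% of Dendra2 70R cells (65.2 to 68.8%). CCDC85B (33.4% in HaloTag 70R, 74.0% in Dendra2 70R), TXNRD1 (34.0% and 74.3%), ID3, an inhibitor of basic helix-loop-helix factors (44.98% and 80.95%), and NQO1 (17.8% and 51.65%) followed. The log2 CPM differences of these 5 genes had the same direction, from -1.32 for ID3 to -2.05 for PLCG2 and TXNRD1.

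The deposited kinetic tables give each gene's mean count per cell and a burst frequency K with lower and upper limits, and the ratio of mean to K was taken as burst size. Of 4254 genes averaging at least 0.5 UMIs per cell, the median log2 difference of HaloTag 70R over Dendra2 70R was -0.04 in K, -0.78 in size and -0.83 in mean. Mean UMIs per cell differed by -0.77 on the same scale, so the median gap in size was close to the gap in depth. Values that follow are relative to those medians. K was past 2-fold in 125 genes (2.94%), 53 higher (1.25%) and 72 lower (1.69%). Size was past 2-fold in 276 (6.49%), 158 higher (3.71%) and 118 lower (2.77%). The limits of K did not overlap in 718 genes, and of these 28 were past 2-fold higher in K and 69 lower.

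Genes called by level differed more in size than in K on the median. Level, K and size come from the same counts. Of those past 2-fold in CPM, 69 higher genes had a median log2 difference of 0.36 in K and 1.14 in size, and 65 lower genes -0.21 in K and -0.97 in size. The larger part was K in 17 of the 69 and in 14 of the 65. TXNRD1 had a K of 1.40 in HaloTag 70R (limits 1.26 to 1.55) and 1.21 in Dendra2 70R (1.14 to 1.28), so its relative log2 difference was 0.24 in K and -2.27 in size. The 11 NRF2 genes of at least 0.5 UMIs per cell were all above 0 in K, from 0.01 to 0.95, and below 0 in size. Their limits of K were apart in 3 of the 11, against 16.9% of all genes of at least 0.5 UMIs per cell. Relative K was below 0 in 2127 of the 4253 such genes that also averaged at least 10 CPM. CTSL had a K of 0.665 in HaloTag 70R and 1.64 in Dendra2 70R, with relative differences of -1.26 in K and 3.41 in size. EGR1 was the reverse, with a K of 0.967 in HaloTag 70R (0.870 to 1.08) and 0.249 in Dendra2 70R (0.212 to 0.291), and relative differences of 1.99 in K and 0.01 in size.

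In cell-cycle genes K and level went apart. The 47 S phase and DNA replication genes had a median log2 CPM difference of -0.15 and the 57 G2/M and mitosis genes 0.07, with none past 2-fold. Yet relative K was below 0 in all 33 S phase genes of at least 0.5 UMIs per cell, from -1.15 to -0.35 (median -0.84), and size was above 0 in all 33 (median 0.77). In the G2/M list K was below 0 in all 51, from -1.15 to -0.26 (median -0.87), and size was above 0 in 50 (median 0.92). The limits of K were apart in 32 of the 33 and 50 of the 51. They were apart in 16.9% of all genes of at least 0.5 UMIs per cell.

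In the other pairs the median relative K was -0.82 at 25R and -0.88 at 52R for S phase genes and -0.66 and -0.90 for G2/M genes. At 70R, 36.4% of HaloTag 70R cells and 17.96% of Dendra2 70R cells were called G1. Phases were scored from these same 2 gene lists, so the calls and K rest on the same genes. No phases were called in the other pairs. How much of the difference in K goes with the share of cycling cells was not tested. Among single genes whose limits of K did not overlap, the largest rise was that of MED27, a Mediator subunit, at 41.7 in HaloTag 70R (limits 7.76 to 1176) and 3.62 in Dendra2 70R (2.61 to 5.63), a relative log2 difference of 3.56. RFXANK, PAGE2B, SPPL2A and UBE2J2 followed, with relative log2 differences of 3.09 to 2.59. In HaloTag 70R the limits of K were 5.53 to 1352 for RFXANK and 5.74 to 796 for SPPL2A. Those of PAGE2B were 2.54 to 3.07. The sizes of MED27, RFXANK and SPPL2A are thus poorly bounded above. The lowest were ANXA3 (-6.64), MAGEA10 (-2.35), HIST1H4C (-1.73), ID3 (-1.44) and CHEK1 (-1.43). CHEK1, a checkpoint kinase that is in neither cell-cycle list, had a K of 1.18 in HaloTag 70R (0.957 to 1.496) and 3.25 in Dendra2 70R (2.47 to 4.54).

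**Figure D4:**
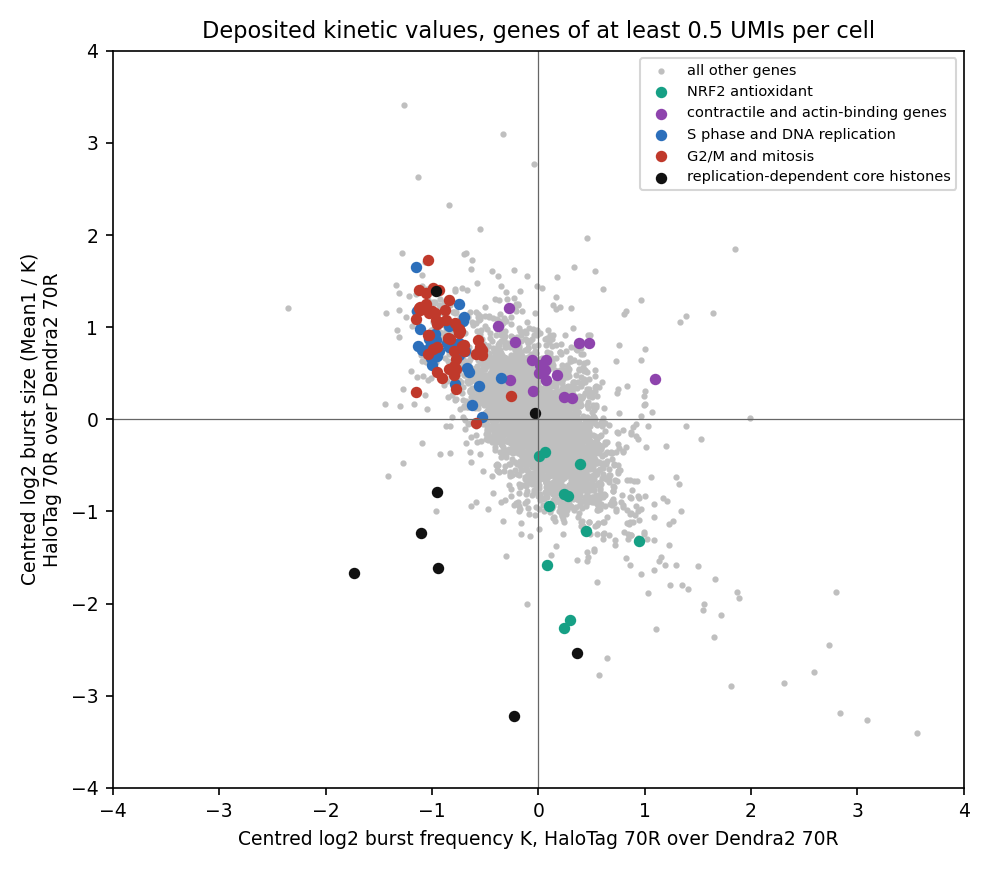
Each point is 1 gene averaging at least 0.5 UMIs per cell: the x axis gives the log2 difference in burst frequency K and the y axis that in burst size, HaloTag 70R over Dendra2 70R, each relative to the median of all genes; 1 gene lies outside the range drawn. S phase (blue) and G2/M genes (red) crowd the upper left, with K below 0 in all 84 of them, core histones lie mostly below and left, NRF2 genes below 0 in size, and contractile genes above 0 in size.

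In places neighbouring genes differed in the same direction. Over 154 windows of 50 consecutive genes of at least 10 CPM, an analysis chosen after the values were seen, 27 had a median log2 difference at or past 0.25 at 70R, 18 at 25R and 10 at 52R. The lowest was the window from 0.2 to 36.2 Mb of chromosome 5, which spans most of its short arm. Of its 50 genes, 46 were below 0 and 9 past 2-fold lower, with a median of -0.75 at 70R, 0.04 at 25R and 0.10 at 52R. Within each tag, the window's median was 0.02 for HaloTag 70R over the mean of HaloTag 25R and 52R, and 0.77 for Dendra2 70R over the mean of Dendra2 25R and 52R. Dendra2 70R was therefore the library that stood apart there.

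SDHA, a subunit of succinate dehydrogenase at chr5:218303-257082, had 35.0 CPM in HaloTag 70R and 80.9 CPM in Dendra2 70R (log2 -1.19), against 33.8 to 38.8 CPM in the other 4 lines. NDUFS6, a complex I subunit, had 453 CPM in HaloTag 70R and 952 CPM in Dendra2 70R (-1.07), and CCT5, a cytosolic chaperonin subunit, 464 and 932 CPM. Windows on the long arm of chromosome 17 (63.6 to 81.7 Mb, -0.46 and -0.43) and 7 on chromosome 2 (-0.40 to -0.25) were also low. Those from 161.0 to 201.9 Mb of chromosome 1 (0.39 and 0.47) and from 3.1 to 16.5 Mb of chromosome 19 (0.32 to 0.42) were high. In these HaloTag 70R stood 0.34 to 0.49 above the mean of HaloTag 25R and 52R. Dendra2 70R stood between -0.00 and 0.11 against the mean of Dendra2 25R and 52R. In the 25R pair the chromosome 19 windows stood at 0.07, -0.24 and -0.11, and HaloTag 70R was not set against each other line by itself. HSPE1 and HSPD1 lie in a chromosome 2 window at -0.38. The window of HMGCS1 stood at -0.24 and that of TXNRD1 at -0.10. DNA copy number was not measured, and its part in these differences was not tested.

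**Figure D5:**
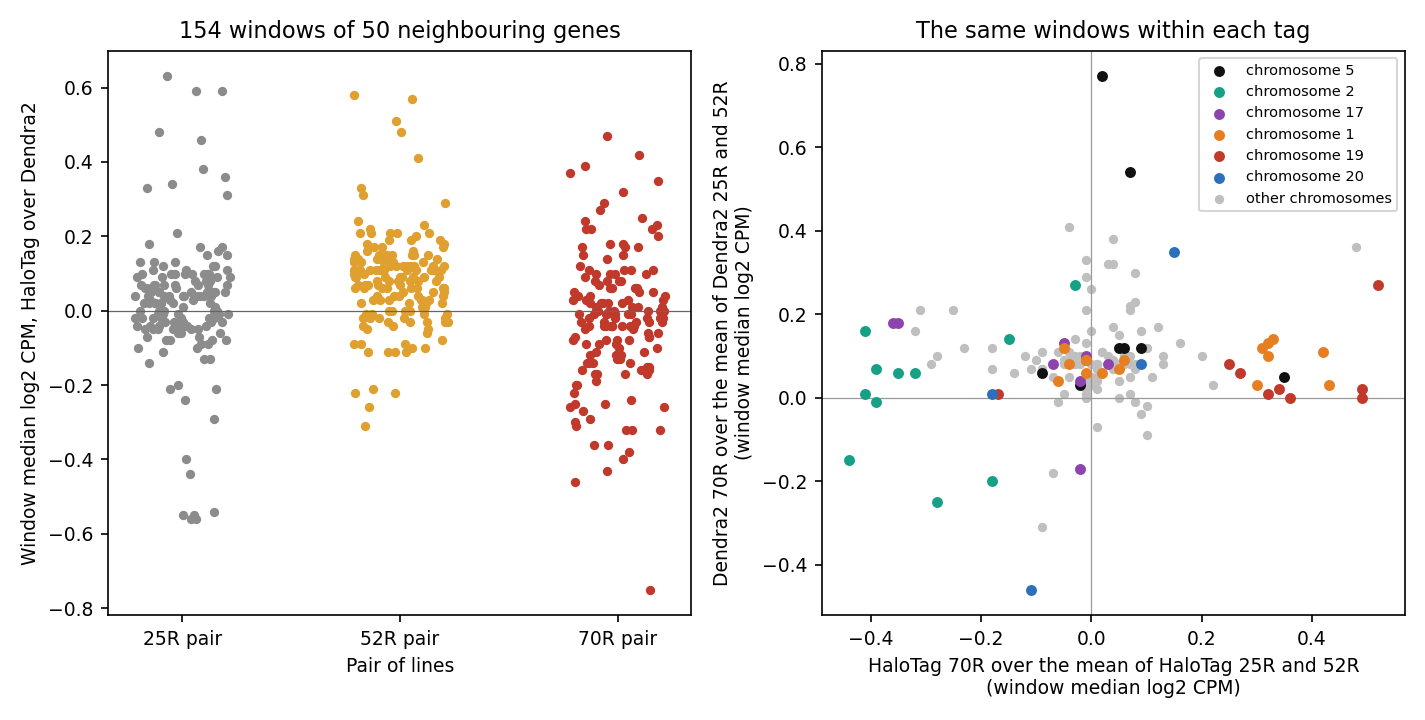
Each point is a window of 50 neighbouring genes of at least 10 CPM. The left panel gives the window's median log2 CPM difference, HaloTag over Dendra2, for the pairs at 25R, 52R and 70R. The right panel gives HaloTag 70R over the mean of HaloTag 25R and 52R (x) and Dendra2 70R over the mean of Dendra2 25R and 52R (y). The short arm of chromosome 5 is the black point at 0.02 and 0.77, and the 5 high windows of chromosomes 1 and 19 named in the text lie at 0.34 to 0.49 on x.

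Differences also varied with gene length and class. The fifth of genes with the shortest spans (median 5.50 kb) had a median log2 difference of -0.11 and the fifth with the longest (median 156 kb) 0.13. In the longest group 56 genes were past 2-fold higher and 13 lower, against 50 and 50 in the shortest. Of 306 long noncoding RNAs, 34 were past 2-fold higher in HaloTag 70R (11.1%) and 7 lower (2.29%), with a median of 0.21. Of 7901 protein-coding genes, 159 were past 2-fold higher (2.01%) and 118 lower (1.49%), with a median of -0.02, and the shares over all genes were 2.35% and 1.53%.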

How the data were processed

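The deposited files hold UMI counts per gene and cell; per the file headers the authors used Cell Ranger 6.1.2, and the submitters' processing notes name GRCh38 and bcl2fastq. The HaloTag 70R matrix merges 2 sequencing runs. The authors' kinetic tables list a mean, K and limits per gene, as deposited; their fitting tool is not named here. UMIs of kept cells were summed per library (totals in the report), scaled to CPM without the tag rows and compared as log2(CPM + 1), which understates changes of low genes. A call was 2-fold at a mean of at least 10 CPM, which a gene can reach through 1 library alone. With 1 library a side no test was run; intervals are 95% and cover counting error only. Detection and phases used cells thinned to 5000 UMIs; scanpy 1.11.5 called G1 where both scores were below 0 and otherwise the phase of the higher score. Doublets were not called; leaving out the 5% of cells with most UMIs was an alternative. The members, the 42 gene lists and their genes were chosen with earlier results of these data known. Named genes were the 15 highest and 15 lowest in CPM, up to 4 per list in the direction of its median plus those past 2-fold against it, 5 each way in detection share and in K (limits apart), and genes reversed in both other pairs. Other genes, and the sequences shown, were chosen after their values were seen. Some genes that this rule names are not reported here. Transcripts and coordinates were GENCODE v44; promoters were RefSeq GRCh38.p14. The comparison was checked on simulated data. TMM factors (edgeR 4.0.16) and DESeq2 1.42.0 size factors were alternatives. Software was Python 3.11.15, scipy 1.17.1 and R 4.3.3.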

Additional observations from a re-analysis of the deposited data

Results flagged for a closer look

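Some results at 70R had the opposite sign to both other pairs of lines; none of these differences between pairs was tested. TGM2 stood at -1.46 on the log2 scale (HaloTag over Dendra2) at 70R, against 3.50 at 25R and 1.86 at 52R, and CXCL14 at 3.60, against -2.23 and -0.17. PARP16 stood at -2.23, against 0.91 and 0.38, and SPANXC at -2.17, against 0.15 and 0.28. TMEM132D-AS1 stood at -2.16, against 0.27 and 0.54, HMGCS1 at -2.13, against 0.10 and 0.23, and TAGLN at 1.27, against -1.15 and -0.37. The contractile list had a median of 0.58 at 70R, against -0.19 at 25R and -0.01 at 52R.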

How the results depend on the processing

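No paired analysis was possible because each line is 1 library and the replicate numbers in the labels mark sequencing runs of it. The count of genes past 2-fold in CPM, 319, became 693 with a floor of 1 CPM and 729 with none, since more genes were tested; in the other alternatives it lay between 213 and 342. Of the 319, 35 were past 2-fold the same way in both other pairs, a count that became 70 and 72 at those floors and 20 within cells called G1, all computed after seeing the data. The direction split moved with scaling: 157 higher and 164 lower under TMM, 159 and 151 under DESeq2's size factors. The 604 genes past 10 points in detection share became 4853 on all UMIs and 382 at 3000 UMIs per cell. The 125 genes past 2-fold in K became 2026 with a floor of 0.1 UMIs per cell, 1183 higher and 843 lower, against 53 higher and 72 lower at 0.5; the cause was not tested. Subtracting each gene's window median, also chosen after seeing the data, left 270 genes past 2-fold, 242 of them among the 319, and took SDHA to -0.44. Over all alternatives, 62 of 503 list medians moved by 0.1 or more on the log2 scale, and 1126 of 2618 values of named genes fell outside the counting interval of the reported value. None of these changed the sign of a list median at or past 0.3 or of a gene past 2-fold. With 1 library a side, the depth limits counting error and says nothing of the spread between cultures.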

Other observations

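The other gene lists are given as values at 70R, HaloTag over Dendra2 on the log2 scale, beside a median of -0.01 over all 8220 genes. Of those 8220, 51.7% were below 0, 2.35% were past 2-fold higher and 1.53% past 2-fold lower. Of 14 cancer-testis genes of at least 10 CPM, 3 were past 2-fold higher, CTAG2 (1.54), PRAME (1.37) and PAGE2 (1.27), and MAGEA10 (-1.16) was past 2-fold lower. Of 13 osteoblast genes 2 averaged at least 10 CPM, and both were past 2-fold higher. TNFRSF11B, the decoy receptor osteoprotegerin, stood at 2.15, with 52.6 CPM in HaloTag 70R and 11.1 CPM in Dendra2 70R. RUNX2, the bone lineage transcription factor, stood at 1.28, with 24.6 and 9.53 CPM, so it passed 10 CPM in HaloTag 70R alone. All 13 summed to 97.7 CPM in HaloTag 70R and 51.6 CPM in Dendra2 70R. Without these 2 genes, the rest of the list summed lower in HaloTag 70R. The class I antigen presentation list had a median of 0.05 over 12 genes. In the YAP and TEAD list F3, tissue factor, was past 2-fold lower (-1.54) against a median of 0.17 over 22 genes.

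Of 11 tubulins, 10 were below 0 (51.7% of all genes were), with TUBA4A at -1.58. Of 11 intermediate filaments and lamins NEFL, the light neurofilament chain, was past 2-fold lower (-1.22), against 1.53% of all genes. Medians were -0.31 for 22 ATF4 targets, with PSPH (-1.04) and SLC7A11 (-1.02) past 2-fold lower, and -0.24 for 24 heat shock chaperones. They were -0.09 for 28 p53 targets, -0.02 for 19 genes of the unfolded protein response, -0.15 for 22 glycolysis and hypoxia genes, -0.13 for 31 proteasome subunits and -0.01 for 13 interferon-stimulated genes, with none past 2-fold in these 5 lists. The 12 factors of histone transcript processing had a median of -0.01, 29 Integrator and polyadenylation genes 0.01 and 22 small nucleolar RNA host genes -0.13, again with none past 2-fold. Of 76 nuclear respiratory chain genes, SDHA and NDUFS6 on chromosome 5 were the ones past 2-fold. Of 11 nuclear long noncoding RNAs, MIAT was past 2-fold, and the median was 0.38. NCAM1 was the neuronal marker of at least 10 CPM (0.36).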
